A study of Homo sapiens with 6 samples.

Results

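The epithelial membrane proteins EMP1, EMP2 and EMP3 and peripheral myelin protein 22 (PMP22) were followed in RNA-seq counts of HCT116 cells, an established human colorectal carcinoma line. These 4 genes, of 56638 gene symbols counted, form 1 paralog family, and they were chosen by their measured counts in this contrast, in which the members had been seen to differ from each other. Their values in it are therefore given as a description, no p is given for them, and the call rule applied to all genes supports nothing about them. The WT group held 3 samples of unedited HCT116 cells. The METTL3-KO group held 3 samples that the labels describe as HCT116 cells with a CRISPR/Cas9 knockout of METTL3, the catalytic subunit of the m6A RNA methyltransferase. The deposited counts name these samples SiM3 and the WT samples NC, names that the sources used here do not explain. The study also compared METTL3 siRNA with control siRNA in HCT116 cells, and the names alone do not tell such samples from knockout samples. That these samples carry the knockout therefore rests on the labels. The study reports a check of the knockout by sequencing and Western blot. Per the study's methods it was made with a lentiviral vector as 1 monoclonal line selected with puromycin, so what belongs to the clone or to the selection cannot be told apart from the loss of METTL3. Both groups were grown in McCoy's 5a medium with serum and carried the label of passage 16 to 19. No label says that replicates came from separate cultures, so the p-values below measure only the spread between these samples, which may be technical.

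All members are tetraspan membrane proteins and share an architecture with the claudins of tight junctions. EMP1 is found in squamous and other epithelia, EMP2 acts on integrin and focal adhesion signalling, EMP3 has been studied in gliomas, and PMP22 is a main protein of compact myelin that Schwann cells make in large amounts. PMP22 is also made at lower levels in epithelia, and changes in its gene dose cause inherited demyelinating neuropathies.

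The promoters of EMP1 and EMP2 are shown because these were the family members with the highest levels in both genotypes. They are RefSeq sequences of GRCh38.p14, the 250 bases before the annotated start, in the direction of transcription. Capitals mark the AP-1-like word TGANTCA, where N is any base, and the GC box GGGCGG on either strand.
EMP1 promoter, chr12:13196476-13196725, + strand: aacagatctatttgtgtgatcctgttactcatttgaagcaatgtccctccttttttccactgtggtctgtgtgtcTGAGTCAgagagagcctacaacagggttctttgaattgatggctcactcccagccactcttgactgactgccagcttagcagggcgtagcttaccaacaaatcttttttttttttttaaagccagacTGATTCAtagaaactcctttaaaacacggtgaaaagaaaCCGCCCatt
EMP2 promoter, chr16:10580599-10580848, - strand: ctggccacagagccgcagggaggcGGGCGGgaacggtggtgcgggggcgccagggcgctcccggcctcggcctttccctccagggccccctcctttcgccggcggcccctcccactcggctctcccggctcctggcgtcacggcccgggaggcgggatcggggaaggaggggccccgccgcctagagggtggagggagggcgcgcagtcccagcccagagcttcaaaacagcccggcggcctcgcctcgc

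The EMP1 window held TGANTCA at 175 bases before the start, as TGAGTCA, and at 48 bases, as TGATTCA. The usual AP-1 site has G or C as its middle base, which the match at 48 bases lacks. The EMP1 window also had a GC box at 9 bases, and 42.4% of its bases were G or C. Of 35116 RefSeq promoter windows of the same length, 6.573% held at least 1 TGANTCA match, 0.402% held at least 2, and 42.639% held a GC box. The narrower AP-1 word was not counted over these windows. The EMP2 window had a GC box at 226 bases and the word TGACG at 115 bases before the start, a word found in 21.218% of windows, and no TGANTCA. Its GC content was 77.2%, against a median of 58% over all windows. None of the 2 EMP3 and 3 PMP22 windows in the table held TGANTCA. The first EMP3 window had a GC box at 11 bases, CCAAT at 89 bases, and overlapping TATAAA matches on the 2 strands at 226 and 224 bases. CCAAT and TATAAA occurred in 32.008% and 10.716% of all windows. The 3 PMP22 windows held CCAAT at 47 bases, a GC box at 98 bases and a GC box at 67 bases, respectively. GGAATG, the word bound by TEAD factors and found in 11.889% of windows, was in none of the windows of EMP1, EMP2, EMP3 or PMP22. A matching word describes these letters only.

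Because METTL3 methylates adenosines within words such as GGACT, the principal annotated transcript of each gene was also searched for that word. EMP1 had 5 matches in 5913 bases, all of them in the 3′UTR, which lies in exon 5 of 5. They are printed with 10 bases on each side, the word in capitals, from GRCh37 and on the + strand.
EMP1 3′UTR, chr12:13368995-13369019: cctctatacaGGACTtagaagtagt
EMP1 3′UTR, chr12:13370181-13370205: tgagcagtaaGGACTggtatctttc
EMP1 3′UTR, chr12:13370208-13370232: tgagcaataaGGACTggataaagac
EMP1 3′UTR, chr12:13372283-13372307: acctcagtgtGGACTtaatcgtcca
EMP1 3′UTR, chr12:13372623-13372647: ggcacatgagGGACTttatgatatt

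The last match lies 5008 bases past the stop codon, in a 3′UTR of 5250 bases. EMP2 had no GGACT in a transcript of 5097 bases, EMP3 had 1 match in 649 bases, within its coding sequence, and PMP22 had 2 matches in 1828 bases, both in the 3′UTR. Other words that METTL3 methylates were not searched for. The density of EMP1, 0.846 matches per kb, was close to the median of 0.925 per kb over 18903 coding transcripts, of which 88.653% held at least 1 match. Density was 1.54 per kb for EMP3 and 1.09 per kb for PMP22. Whether any of these words was methylated was not measured in the counts. The study also ran m6A-seq on WT and METTL3-KO HCT116 cells, which was not used here.

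The 6 libraries held 20936091 to 30142144 counts on genes. METTL3 was counted 841, 682 and 623 times in the WT samples and 219, 169 and 162 times in the METTL3-KO samples. Its level was 29.2 to 30.6 CPM (counts scaled to a common library size) in WT and 7.28 ± 0.400 CPM in METTL3-KO cells (SD, n = 3), a log2 fold change of -2.04 (SE 0.0906, edgeR adjusted p = 1.59e-07). Replicate 3 stood apart in both groups. Its counts differed from the other replicates of its group by a chi-square of 7.61 to 20.841 per gene, whereas replicates 1 and 2 differed by 2.441 in WT and 2.225 in METTL3-KO. All 9 colon epithelial markers listed were above 1 CPM, at a summed 5820 to 7210 CPM in WT and 8340 to 9300 CPM in METTL3-KO. KRT8 made up most of that sum, at a mean of 4120 CPM in WT and 5290 CPM in METTL3-KO. EPCAM stood at 514 and 519 CPM, and CDX2 alone had a lower mean in METTL3-KO, 6.79 against 7.68 CPM. Of 7 fibroblast markers 2 were above 1 CPM (5.44 to 7.17 CPM summed in WT, 9.45 to 10.2 in METTL3-KO, COL1A2 and COL3A1 at 0), and of 5 leukocyte markers 1 was, CD14 (5.58 to 6.90 and 6.40 to 10.6 CPM summed). The part of these markers in the results was not tested. In bulk RNA, fewer cells of a type and less RNA per cell cannot be told apart.

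EMP1 was about 4 times as abundant in METTL3-KO as in WT cells, EMP2 was slightly higher, EMP3 was at a slightly lower level, and PMP22 was close to the limit of detection in every sample. Of the 4 genes, 2 passed an adjusted p under 0.05 (edgeR quasi-likelihood test, Benjamini-Hochberg adjustment over 22452 tested genes), EMP1 and EMP2, both of them higher in METTL3-KO, and 1 did, EMP1, without METTL3-KO 1 or without METTL3-KO 2. The same rule called 26.5% of all tested genes, 13.3% as higher and 13.2% as lower, and since this contrast chose the 4 genes nothing is read from their count. The median log2 fold change of all tested genes was -0.02. All 4 genes passed the filter on low counts, which required 5 counts in total in either genotype.

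EMP1 (chr12:13349657-13372875, + strand, GRCh37), best known from stratified epithelia, was counted 975, 839 and 782 times in WT and 4690, 3283 and 3376 times in METTL3-KO samples. At library sizes scaled by TMM these were 35.5, 37.1 and 36.7 CPM in WT and 156, 149 and 144 CPM in METTL3-KO. The lowest METTL3-KO sample thus lay far above the highest WT sample, and the spread within a group was narrow, with a coefficient of variation of 2.27% in WT and 4.05% in METTL3-KO. The mean was 36.4 ± 0.827 CPM in WT and 150 ± 6.05 CPM in METTL3-KO (SD, n = 3 each), a log2 fold change of 2.04 (SE 0.0731), or 4.10-fold. Of all 22452 tested genes 475 had a larger log2 fold change, and of the 12832 whose log2 CPM averaged 1 or more, 15 did. Leaving out any 1 library moved the log2 fold change of EMP1 between 2.01 and 2.07, and it was 2.07 without replicate 3 of both groups.

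EMP2 (chr16:10622279-10674489, - strand), the member that acts with integrins and focal adhesion kinase, was counted 1336, 1045 and 932 times in WT and 1743, 1265 and 1298 times in METTL3-KO. These counts correspond to 48.7, 46.2 and 43.7 CPM in WT and 57.8, 57.6 and 55.2 CPM in METTL3-KO. The groups did not overlap, but the gap between the highest WT and the lowest METTL3-KO sample was only a little wider than the range of the WT samples. The mean was 46.2 ± 2.48 CPM in WT and 56.9 ± 1.45 CPM in METTL3-KO, a log2 fold change of 0.30 (SE 0.0749), or 1.23-fold. Its log2 fold change stayed between 0.26 and 0.34 when any 1 library was left out and was 0.28 without replicate 3 of both groups. Its exons share 533 bases with a long noncoding gene on the other strand, and the strand setting of the counting is not given in the sources used here.

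EMP3 (chr19:48824766-48833810, + strand) had far lower counts, 63, 61 and 51 in WT and 56, 44 and 38 in METTL3-KO. Its levels were 2.30, 2.70 and 2.39 CPM in WT and 1.86, 2.0 and 1.62 CPM in METTL3-KO, so that the highest METTL3-KO sample was still below the lowest WT sample. Groups that do not overlap occurred in 40.9% of tested genes and in 3 of the 4 family members, EMP1, EMP2 and EMP3. The mean was 2.46 ± 0.211 CPM in WT and 1.83 ± 0.195 CPM in METTL3-KO, a log2 fold change of -0.43 (SE 0.179). EMP3 shares 294 exon bases with ODAD1 on the other strand, listed in the counts as CCDC114, which stood at 1.753 CPM in WT and 1.781 CPM in METTL3-KO with overlapping groups.

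PMP22 (chr17:15133090-15175609, - strand), the myelin protein, was counted 3, 4 and 3 times in WT and 4, 4 and 5 times in METTL3-KO. A floor of 3 counts corresponds to 0.0995 to 0.141 CPM in these libraries, and the means of PMP22, 0.142 ± 0.0338 CPM in WT and 0.176 ± 0.0403 CPM in METTL3-KO, lay near it. The groups overlapped. The ratio of its pooled counts, METTL3-KO over WT at equal depth, was 1.23 (95% exact binomial interval 0.497 to 3.13, counting error only). At this depth the counts did not tell ratios within that interval apart, no change among them. PMP22 shares 582 exon bases with a gene on the other strand and 99 with a small nucleolar RNA gene on its own strand. The effect of this sharing on its counts was not tested. Of 9 Schwann cell markers, MBP and PRX were above 1 CPM and S100B was at 0 in all samples. The summed level of these markers was 46.7 to 52.8 CPM in WT and 59.2 to 65.2 CPM in METTL3-KO, and its part in the PMP22 values was not tested.

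**Figure D1:**
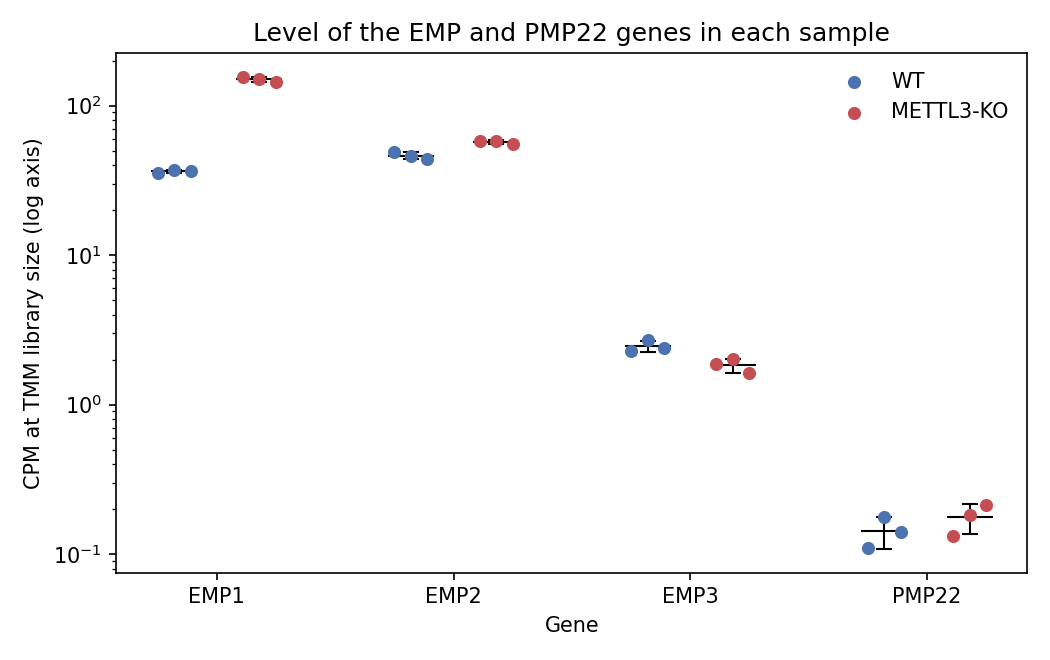
Level of EMP1, EMP2, EMP3 and PMP22 in each of the 3 WT and 3 METTL3-KO samples, as CPM at TMM-scaled library size on a log axis. Each point is a sample, the long line is the group mean and the bar is 1 SD; EMP1 separates at 36.4 against 150 CPM, whereas the PMP22 groups overlap below 1 CPM.

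To compare levels between the 4 genes, CPM was divided by the length of each gene's merged exons, 7.833 kb for EMP1, 8.652 kb for EMP2, 1.645 kb for EMP3 and 10.398 kb for PMP22. In WT cells EMP2 led with 5.34 ± 0.287 CPM per kb, followed by EMP1 with 4.65 ± 0.105, EMP3 with 1.5 ± 0.128 and PMP22 with 0.0137 ± 0.00326 CPM per kb (SD, n = 3). Neighbours in that order did not overlap, since the lowest EMP2 sample was at 5.05 and the highest EMP1 sample at 4.74 CPM per kb. In METTL3-KO cells EMP1 led with 19.1 ± 0.765 CPM per kb, ahead of EMP2 with 6.57 ± 0.167, EMP3 with 1.11 ± 0.119 and PMP22 with 0.0169 ± 0.00388 CPM per kb. Here too no neighbours overlapped, and EMP1 and EMP2 had changed places.

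Within a sample, the per-length level of EMP1 was 0.806, 0.887 and 0.927 times that of EMP2 in the WT samples and 2.97, 2.87 and 2.87 times in the METTL3-KO samples. That ratio averaged 0.873 ± 0.0616 in WT and 2.90 ± 0.0577 in METTL3-KO. The summed per-length level of the family was 11.5 ± 0.265 CPM per kb in WT and 26.8 ± 1.01 CPM per kb in METTL3-KO. EMP1 made up 40.5% ± 1.30 of that sum in WT and 71.3% ± 0.501 in METTL3-KO, while the share of EMP2 was 46.4% ± 1.93 and 24.5% ± 0.355 and that of EMP3 13.0% ± 0.955 and 4.14% ± 0.351. PMP22 held 0.119% in WT and 0.0635% in METTL3-KO. The share of EMP2 was thus lower in METTL3-KO although its own level was not. With the longest transcript as the length, EMP1 held 33.3% and 65.0%, and the order of the 4 genes in each genotype was the one given above. Among 17293 genes with a length, EMP1 stood at percentile 58 in WT and 86.2 in METTL3-KO, EMP2 at 60.8 and 65.7, EMP3 at 38.7 and 35.5, and PMP22 at 3.1 and 3.2.

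**Figure D2:**
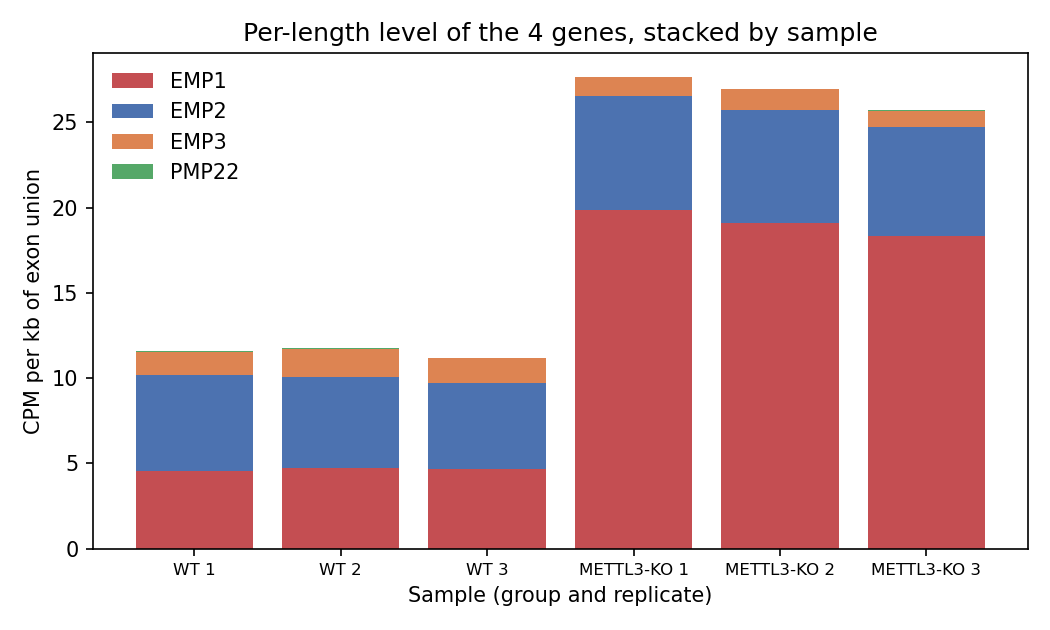
Per-length level of the 4 genes (CPM per kb of merged exons), stacked for each of the 6 samples. The 3 METTL3-KO columns reach 25.7 to 27.7 CPM per kb against 11.2 to 11.7 in WT, and the EMP1 part (lowest in each column) grows from 40.5% to 71.3% of the sum, while PMP22 is too low to be seen.

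The profiles of the 4 genes over the 6 samples were also compared with each other and with the other genes, as the root mean square (RMS) difference of log2 CPM after centring each gene on its own mean. EMP2 and PMP22 were nearest, at an RMS of 0.221, and EMP1 and EMP3 were farthest apart, at 1.23. EMP1 differed from EMP2 by 0.869 and from PMP22 by 0.938, and EMP3 differed from EMP2 by 0.376 and from PMP22 by 0.369. The low counts of PMP22 weigh on each distance that includes it.

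Nearest to EMP1, among the 12831 other genes whose log2 CPM averaged 1 or more, were INSIG1, which retains sterol sensors in the endoplasmic reticulum (RMS 0.0707, log2 fold change 1.97), DKK1, a secreted inhibitor of Wnt signalling (0.0788, 2.09), and PGM5, a phosphoglucomutase relative of adherens junctions (0.103, 1.87). Only 36 genes came within an RMS of 0.25 of EMP1. Within the same distance lay 7185 genes for EMP2, 5217 for EMP3 and 5268 of 12832 for PMP22. These 3 profiles are shallow, so that a flat profile also lies within that distance of them, and the large counts do not show a shared pattern. Nearest to EMP2 were CCDC90B, a mitochondrial protein (RMS 0.0228), KCMF1, a ubiquitin ligase (0.0250), and RHOU, a small GTPase (0.0288). Nearest to EMP3 were IFNAR2, a chain of the type I interferon receptor (RMS 0.0295), the noncoding RNA LINC01106 (0.0532) and PEX3, a peroxisome assembly factor (0.0574). Nearest to PMP22 were HAUS7, a subunit of the augmin complex (RMS 0.0676), CAP2, an actin regulator (0.0731), and AP001372.2 (0.0910).

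**Figure D3:**
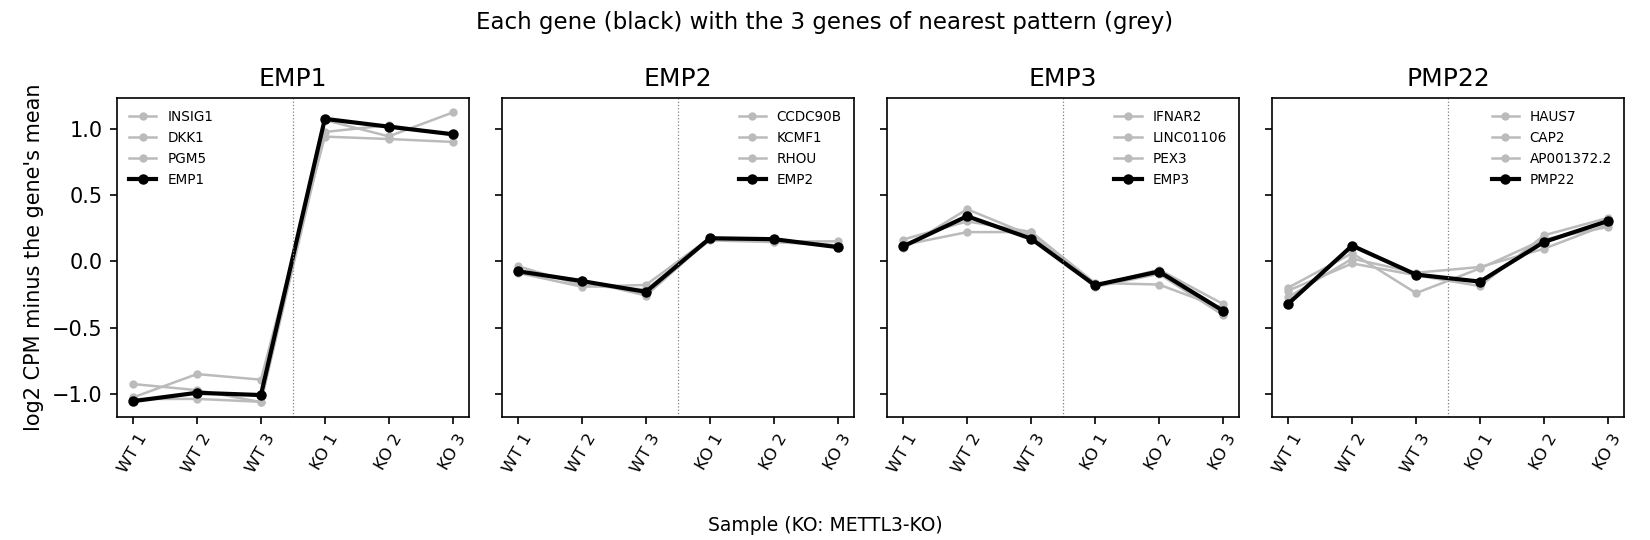
Centred log2 CPM (each gene's values minus its own mean) of EMP1, EMP2, EMP3 and PMP22 in black, with the 3 nearest genes of each in grey, over the WT and METTL3-KO (KO) samples. Only the EMP1 panel steps by about 2.04 on the log2 scale between the genotypes, and the other 3 panels stay closer to 0.

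Proteins that bind or act with the family formed a list of 15 genes, of which 14 were tested. Of these, 3 were higher and 1 lower in METTL3-KO (28.6% passed, against 26.5% of all tested genes), with a median log2 fold change of 0.05 against -0.02 for all genes. CAV1, the caveolin that EMP2 is known to affect, rose from 3.97 ± 0.353 to 10.9 ± 0.961 CPM (log2 fold change 1.46, SE 0.124, adjusted p = 8.96e-06). PTK2, focal adhesion kinase, rose from 406 ± 13.9 to 501 ± 7.97 CPM (0.30, SE 0.0647, adjusted p = 0.00435). SRC, the kinase that acts with it, rose from 227 ± 5.79 to 268 ± 8.62 CPM (0.24, SE 0.0664, adjusted p = 0.019). ITGB1, the integrin beta chain that binds EMP2, fell from 428 ± 49.5 to 295 ± 25.9 CPM (-0.54, SE 0.0943, adjusted p = 0.00127). SRC did not pass without WT 1, WT 2, METTL3-KO 1 or METTL3-KO 3, at an adjusted p of 0.0529 to 0.089. Without replicate 3 of both groups, a set of samples chosen after seeing the data, 9 of these genes were higher and 1 was lower, and 5 were higher without WT 3 alone.

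Other partners did not pass. ITGA6 and ITGB4, the laminin-binding integrin chains reported in complexes with PMP22, had log2 fold changes of 0.07 (SE 0.0955) and 0.14 (SE 0.0703), and ITGAV had -0.13 (SE 0.135). The chaperone CANX and the retrieval receptor RER1, which handle PMP22 in the endoplasmic reticulum, had log2 fold changes of 0.03 (SE 0.0759) and 0.18 (SE 0.0743). The junction proteins TJP1 and OCLN stood at -0.08 (SE 0.135) and -0.06 (SE 0.109), and CD44, the hyaluronan receptor linked to EMP3, at 0.03 (SE 0.0695). P2RX7, the ATP-gated channel that binds the family, was at 0 in the 3 WT samples and had 5 counts over the METTL3-KO samples, so no fold is given. ITGB3 was not tested, with 2 counts in all.

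Of 7 known regulators of the family 5 were tested, 1 of them passed as higher and none as lower (20%, against 26.5% of all tested genes), and their median log2 fold change was 0.09. The one that passed was YAP1, the coactivator of TEAD factors, at 120 ± 19.4 CPM in WT and 150 ± 8.62 CPM in METTL3-KO (log2 fold change 0.33, SE 0.104, adjusted p = 0.0355), although its groups overlapped. It did not pass when WT 1, WT 2, METTL3-KO 1 or METTL3-KO 2 was left out, and 2 regulators were higher without WT 3. TEAD1, which acts on the PMP22 gene, had a log2 fold change of 0.16 (SE 0.155), and WWTR1, the other TEAD coactivator, -0.28 (SE 0.254). The Schwann cell factors SOX10 and EGR2, which drive PMP22 in myelinating glia, averaged 0.0668 and 0.223 CPM in WT and 0.0262 and 0.237 CPM in METTL3-KO. The glucocorticoid receptor gene NR3C1 had 4 counts in all and the progesterone receptor gene PGR had 0, and neither was tested.

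More distant relatives of the same tetraspan type, outside the claudins, numbered 26, of which 12 were tested. Of these, 4 were higher and 3 lower (58.3% passed, against 26.5% of all tested genes), with a median log2 fold change of -0.12. PERP, a desmosomal protein and target of p53, rose from 109 ± 2.93 to 276 ± 11.2 CPM (log2 fold change 1.34, SE 0.0693, adjusted p = 3.07e-07). CACNG4, a regulatory subunit of AMPA receptors and calcium channels, rose from 14.0 ± 2.54 to 31.4 ± 0.543 CPM (1.17, SE 0.116, adjusted p = 2.56e-05), and LHFPL2 rose from 28.3 ± 0.820 to 40.6 ± 1.46 CPM (0.52, SE 0.0763, adjusted p = 0.000364). CLDND1, a claudin domain protein, fell from 28.7 ± 0.416 to 14.9 ± 0.784 CPM (-0.94, SE 0.0835, adjusted p = 1.15e-05), and LHFPL3 fell from 1.88 ± 0.404 to 0.513 ± 0.150 CPM (-1.85, SE 0.286, adjusted p = 0.000553). CACNG8 was just inside the threshold, at 3.43 ± 0.371 CPM in WT and 2.46 ± 0.274 CPM in METTL3-KO (-0.48, SE 0.164, adjusted p = 0.04998), and did not pass under 9 of 14 alternatives, among them leaving out any 1 library but WT 3. The seventh gene that passed, NKG7, averaged a log2 CPM of -1.16, under the limit of 0 set for describing such genes.

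Of 24 claudins, the tight junction proteins, 15 were tested, with 1 higher and 4 lower (33.3% passed, against the same 26.5%) and a median log2 fold change of -0.24. CLDN2, which forms cation pores in leaky epithelia, fell from 123 ± 5.10 to 22.3 ± 1.14 CPM (log2 fold change -2.46, SE 0.0790, adjusted p = 2.66e-08). CLDN12 fell from 129 ± 9.67 to 66.5 ± 3.15 CPM (-0.95, adjusted p = 8.1e-06) and CLDN9 from 11 ± 1.38 to 7.49 ± 0.329 CPM (-0.55, adjusted p = 0.00439). The other claudin that passed as lower, CLDN18, averaged a log2 CPM of -0.26, under the limit of 0 set for describing such genes. CLDN15, which also forms cation pores, rose from 20.0 ± 1.02 to 34.6 ± 2.25 CPM (0.79, adjusted p = 4.87e-05). CLDN4, CLDN3 and CLDN7, at 404, 102 and 92.7 CPM in WT, did not pass, with log2 fold changes of 0.05 (SE 0.0809), 0.02 (SE 0.105) and -0.02 (SE 0.0795). The lists were chosen with results of these data known, and nothing particular to any of them is read from its count.

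**Figure D4:**
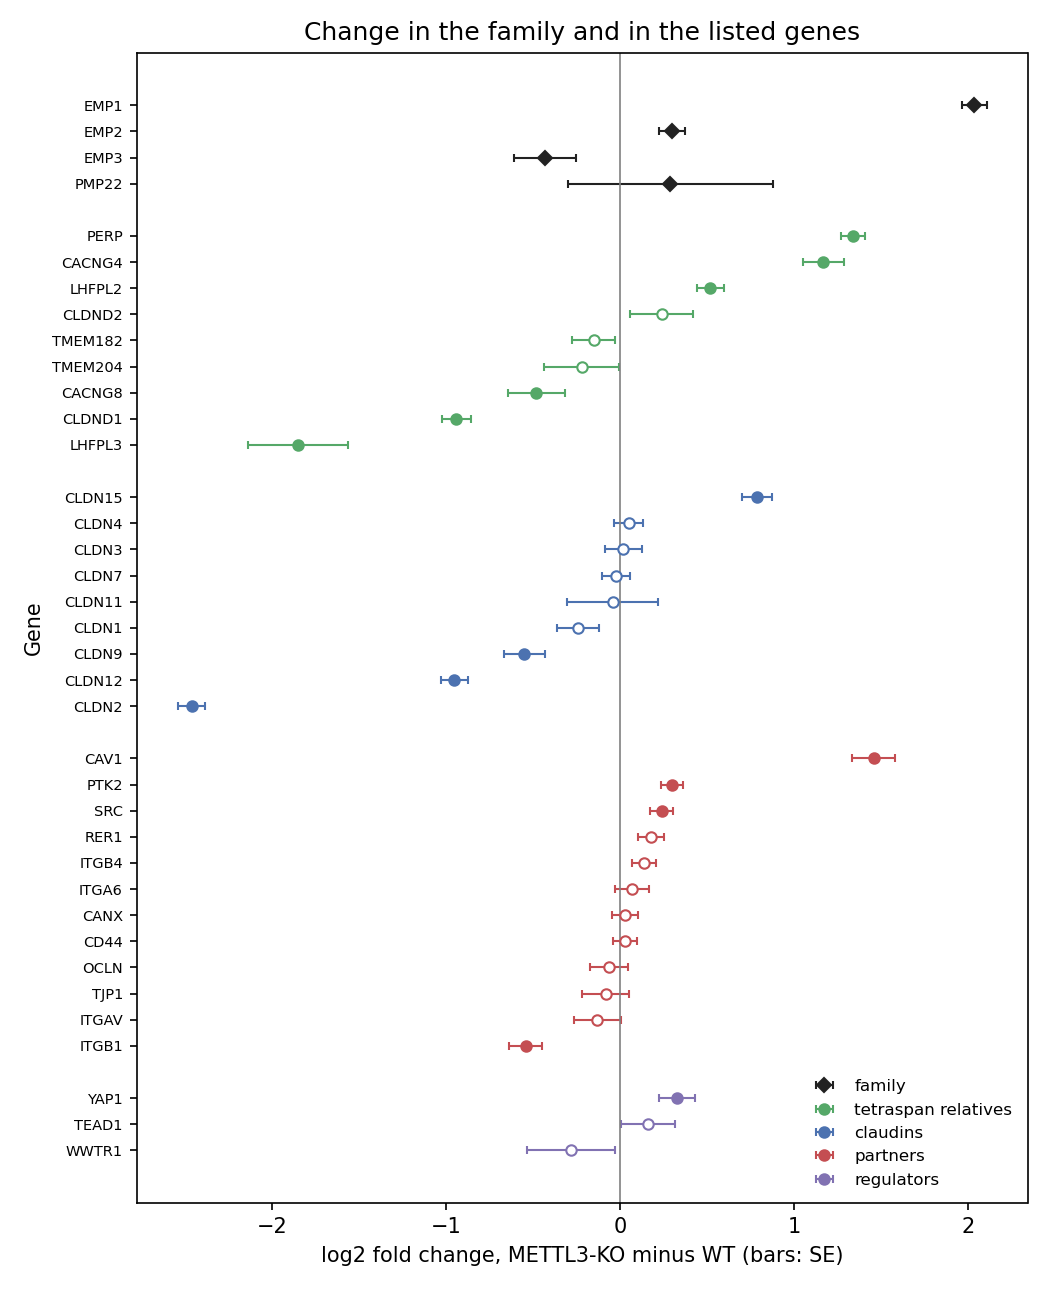
Log2 fold change, METTL3-KO minus WT, with its SE (bars), for the 4 family genes (black diamonds, no test shown) and for the listed relatives, claudins, partners and regulators whose log2 CPM averaged 0 or more. Filled circles passed an adjusted p under 0.05 (edgeR) and open circles did not; EMP1 at 2.04 and CLDN2 at -2.46 are the extremes of those drawn.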

How the data were processed

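Samples were HCT116 WT (n = 3) and METTL3-KO (n = 3), grouped by their labels; the deposited files name the groups NC and SiM3 and number the WT samples 1, 3 and 4, and the labels were followed. The authors aligned read pairs to hg19 by TopHat2 2.0.11 with an Ensembl GRCh37 transcript index, then assigned pairs to genes by htseq-count (union mode). These raw counts are the deposited values, with no normalization or pooling. Reads with no feature (6.03 to 9.08% of those listed), in more than 1 gene (7.95 to 8.77%) or not uniquely aligned (13.39 to 14.7%) were left out of library sizes.

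Genes with at least 5 total counts in either genotype were tested with edgeR 4.0.16 (R 4.3.3; TMM, quasi-likelihood test, two-sided, Benjamini-Hochberg adjustment), without a block. The SE is the size of the log2 fold change over the square root of F. Exon lengths and transcripts were those of GENCODE v44 on GRCh37, with 35793 of 56638 symbols matched, and promoters those of RefSeq. Alternatives were DESeq2 1.42.0, RLE normalization, other filters, a replicate block, correction for length and GC content, and leaving out libraries. Procedures were tested on simulated data.

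The genes named were the 4 members, METTL3, the 3 genes nearest in profile to each member, and list genes with an adjusted p under 0.05 and an average log2 CPM of 0 or more, at most 8 per list by smallest p. Others were named as list members that did not pass. Members and lists were chosen with earlier results of these data known.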

Additional observations from a re-analysis of the deposited data

How the results depend on the processing

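EMP1, EMP2 and EMP3 kept the direction of their log2 fold changes under all 14 alternatives, and the list genes named as passed did so too, except that NKG7 and CLDN18 were not run under them. PMP22, which the filterByExpr filter removed, kept it under the others, with 0.12 to 0.48 when 1 library was left out. With the replicate number as a block (replicate block), 1719 genes were lower and 1810 higher in METTL3-KO against 2959 and 2986 without it, 1 family member (EMP1), 1 partner and 0 regulators were higher, and PTK2, SRC, YAP1 and CACNG8 had adjusted p-values of 0.0659, 0.13, 0.112 and 0.101. Same-numbered samples deviated from their group means with r = -0.586, -0.39 and -0.784 over 10336 genes. No sample correlated best with its own number. Replicate 3, which stood apart in both groups, weighs on these r values, so they cannot decide whether the numbers pair the samples. With the correction for length and GC content 2 claudins were higher. Without replicate 3 of both groups (chosen after seeing the data), 4823 genes fell and 4555 rose, and 9 partners and 2 regulators were higher. Leaving out any 1 library gave 2188 to 3809 genes higher and 1976 to 3793 lower, 1 to 2 family members, 2 to 5 partners, 0 to 2 regulators and 1 to 2 claudins higher. The cause was not tested. With the longest transcript as length, WT and METTL3-KO levels were 6.16 and 25.3 CPM per kb for EMP1, 9.06 and 11.2 for EMP2, 3.23 and 2.40 for EMP3, and 0.0342 and 0.0422 for PMP22. The depth limited PMP22 most, at 3 to 5 counts per library, and intervals cover counting error only.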
